A study of Mus musculus with 8 samples.

Results

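The genes of the piRNA pathway and of nuage were examined in mouse germline stem (GS) cells. They were 32 genes, chosen by symbol from lists of known piRNA and nuage factors, among 31010 genes measured by RNA-Seq. All 32 were in the table, and 30 of them passed the filter on low values used for testing, a mean of at least 1 FPKM over the lines. FPKM is the number of reads per kilobase of gene after scaling by library size. The 2 genes below the filter were Tdrd6 and Mybl1.

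GS cells are cultured spermatogonia that keep stem cell activity in medium with GDNF and FGF2. The lines were of the wild-type genotype (WT) on the B6 background and came from F1 mice. The 4 control-F1 lines (29, 37, 44 and 45) were from mice sired by natural mating, and the 4 ICSI-F1 lines (11, 17, 20 and 21) were from mice born after intracytoplasmic sperm injection. The study took the sperm for ICSI from green mice, which express an Egfp transgene ubiquitously, and calls this sperm wild-type. Whether the lines carried the transgene was not examined. The study enriched the founding spermatogonia from mature testes by their CD9 surface protein and plated the cultures on gelatin to remove embryonic fibroblasts. The labels give no age and do not say whether lines shared a mouse or litter, so n counts lines and p-values measure the spread between lines. Sample titles were written in 2 styles. Lines 29, 37, 11 and 17 had titles with hyphens and are called label form 1. Lines 44, 45, 20 and 21 had titles without hyphens and are called label form 2, so that each form holds 2 lines of each group. What separates the forms is not stated, so each comparison is also given within or between forms.

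piRNAs are small RNAs of the germline that guide PIWI proteins, a branch of the Argonaute family, to transposon transcripts. Precursors are unwound, cut at the surface of mitochondria and loaded onto PIWI proteins, and their ends are then trimmed and methylated. Nuage, where PIWI proteins are found, is a cytoplasmic granule built on Tudor proteins that bind methylated arginines. In fetal male germ cells the nuclear arm of the pathway directs DNA methylation to transposons. In spermatocytes a later wave of piRNAs is made under the transcription factor encoded by Mybl1. Cultured spermatogonia belong to neither stage.

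The promoter sequences of the pathway were inspected for what they share. RefSeq promoter windows on GRCm38.p6, from 250 bases before to 50 bases after the start, were at hand for 23 of the 32 genes, and the other 9 were Pnldc1, Spocd1, Mybl1, Piwil2, Tex15, Rnf17, Hsp90aa1, Morc1 and Tdrd6. The palindromic E-box CACGTG was present in a window of 11 of the 23 genes (47.8%): Piwil1, Pld6, Mov10l1, Ddx4, Mael, Fkbp6, Tdrd1, Tdrd9, Stk31, Wdr77 and Ddx25. It was in 7.15% of all 32851 windows and in 12.4% of the 9516 other genes that passed the filter. Member genes could have several windows, and 43.8% of their 32 windows held it. Among genes whose highest CpG observed-to-expected ratio in any window was over 0.6, the shares were 52.9% (9 of 17 genes) and 13.6%. The E-box and the highest ratio of a gene could lie in different windows. A match describes letters, not binding, and no factor was measured.

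The bases upstream of the start are shown for 6 genes that the results turn on: the 3 highest genes with a window, the other genes that differed between label forms, and Piwil1. Each run is 250 bases, written 5′ to 3′ on the gene's strand and ending at the base before the start, with the E-box in capitals.
Fkbp6 (chr5:135350045-135350294, minus strand): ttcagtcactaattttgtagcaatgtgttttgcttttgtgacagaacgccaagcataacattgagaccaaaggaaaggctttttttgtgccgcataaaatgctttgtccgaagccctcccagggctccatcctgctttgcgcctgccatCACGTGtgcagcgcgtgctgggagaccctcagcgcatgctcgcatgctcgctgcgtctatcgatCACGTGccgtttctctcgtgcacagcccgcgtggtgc
Mael (chr1:166238745-166238994, minus strand): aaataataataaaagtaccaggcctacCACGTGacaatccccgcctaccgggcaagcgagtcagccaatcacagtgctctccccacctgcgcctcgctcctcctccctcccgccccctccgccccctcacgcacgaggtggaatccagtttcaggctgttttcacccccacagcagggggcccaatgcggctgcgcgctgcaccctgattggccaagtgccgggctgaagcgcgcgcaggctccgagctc
Ddx4 (chr13:112652311-112652560, minus strand): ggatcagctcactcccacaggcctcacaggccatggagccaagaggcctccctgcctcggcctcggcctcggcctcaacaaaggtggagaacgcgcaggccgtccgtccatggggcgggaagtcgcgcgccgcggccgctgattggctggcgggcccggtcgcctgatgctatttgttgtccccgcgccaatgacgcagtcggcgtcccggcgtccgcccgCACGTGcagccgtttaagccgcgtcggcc
Stk31 (chr6:49395289-49395538, plus strand): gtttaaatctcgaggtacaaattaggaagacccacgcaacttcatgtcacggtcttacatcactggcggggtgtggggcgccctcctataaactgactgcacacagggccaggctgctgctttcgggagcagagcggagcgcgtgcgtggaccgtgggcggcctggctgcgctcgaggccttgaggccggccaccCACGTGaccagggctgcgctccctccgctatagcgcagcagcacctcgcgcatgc
Asz1 (chr6:18109062-18109311, minus strand): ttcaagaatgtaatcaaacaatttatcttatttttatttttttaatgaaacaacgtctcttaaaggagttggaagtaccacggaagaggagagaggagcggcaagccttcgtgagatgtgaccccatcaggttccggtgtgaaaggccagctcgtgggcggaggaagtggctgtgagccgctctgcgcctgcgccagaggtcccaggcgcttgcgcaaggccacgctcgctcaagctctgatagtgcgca
Piwil1 (chr5:128735996-128736245, plus strand): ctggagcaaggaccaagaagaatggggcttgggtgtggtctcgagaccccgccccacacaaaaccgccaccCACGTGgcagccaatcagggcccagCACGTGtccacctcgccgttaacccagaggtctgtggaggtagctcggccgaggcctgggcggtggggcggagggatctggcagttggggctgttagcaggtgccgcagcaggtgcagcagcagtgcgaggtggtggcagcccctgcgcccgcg
The E-box began at -29 in Ddx4 and at -55 in Stk31, counted from the start. Fkbp6 held a pair, at -101 and -37, as did Piwil1, at -179 and -154, while that of Mael lay far out, at -223. The run of Asz1 holds no CACGTG.

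The other letters searched, on both strands, did not set the genes apart in the same way. TCCCGC, part of an E2F site, was in 39.1% of the 23 genes and in 41.4% of the other genes that passed the filter. CCAAT was in 47.8% and 43.9%, and TGACG, the core letters of CREB sites, in 30.4% and 36.3%. CNGTTA, letters of MYB sites, was in 30.4% and 22.0%. Over all windows these letters were found in 19.98%, 37.4%, 20.8% and 23.3%, in the same order. The median CpG ratio, taking the highest window of each gene, was 0.78 in the 23 genes and 0.80 in the other genes that passed the filter.

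The levels of the pathway in GS cells were examined first. Most of its genes were strongly expressed: 8 of the 32 had a mean over 100 FPKM, 18 had 10 to 100 FPKM, 4 had 1 to 10 FPKM and 2 were lower. Their median was 36.7 FPKM, against 3.03 FPKM over the 18623 protein-coding genes above 0, and 18 of the 32 were in the top 10% of those genes. A mean over 100 FPKM was reached by 1.57% of protein-coding genes.

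**Figure D1:**
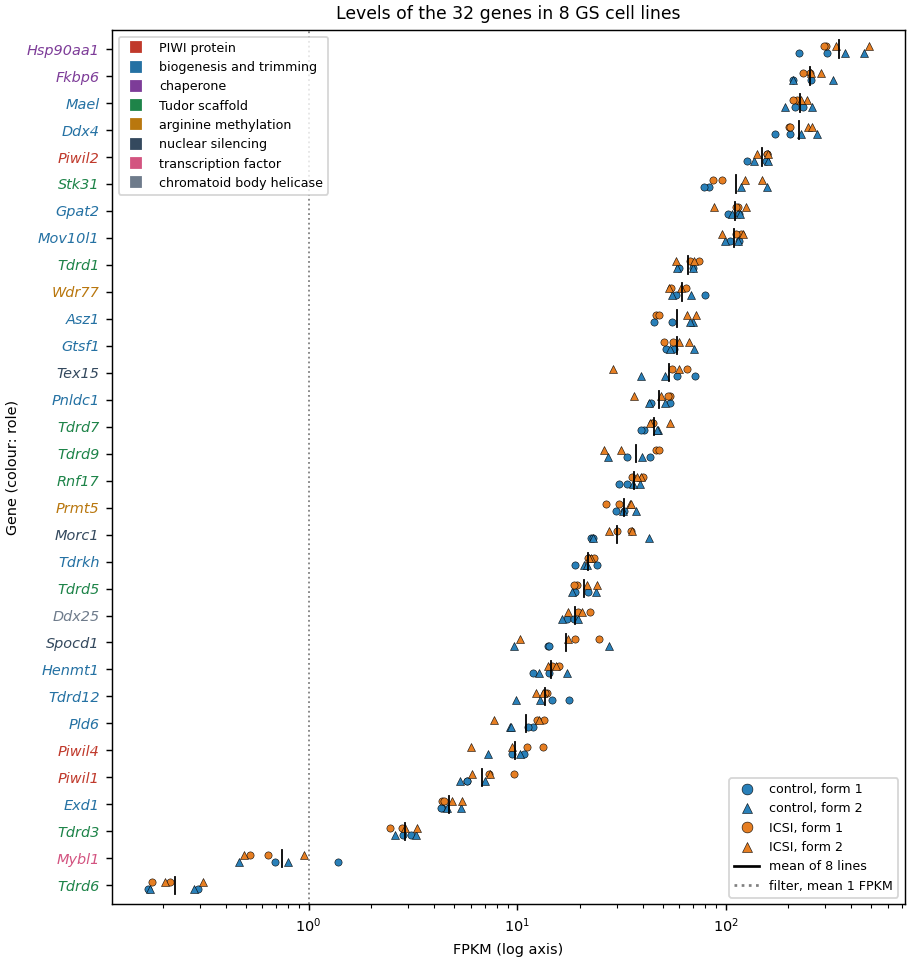
FPKM of the 32 genes (log axis) in each of the 8 lines, ordered by mean; colour gives group, shape gives label form, and the colour of the name gives the role. Hsp90aa1, Fkbp6, Mael and Ddx4 are the highest 4 by mean, and Mybl1 and Tdrd6 lie at the bottom.

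Among the PIWI genes, Piwil2 was the dominant transcript. Piwil2, whose protein MILI acts in the cytoplasm and is needed by spermatogonia, was at 127, 157, 159 and 136 FPKM in control lines 29, 37, 44 and 45 and at 158, 158, 141 and 159 FPKM in ICSI lines 11, 17, 20 and 21. Lines of both groups fell in the same range, with control line 29 the lowest. Piwil4, whose protein MIWI2 works in the nucleus of fetal germ cells, was at 9.48, 10.8, 10.4 and 7.23 FPKM in control lines and at 11.2, 13.4, 6.04 and 9.43 FPKM in ICSI lines. ICSI lines 17 and 20 were its highest and lowest lines. Piwil1, whose protein MIWI loads the piRNAs of spermatocytes and spermatids, was at 5.76, 5.75, 7.01 and 5.34 FPKM in control lines and at 7.35, 9.62, 6.07 and 7.38 FPKM in ICSI lines. Its 3 highest lines were ICSI lines, but ICSI line 20 lay below control line 44, so the groups overlapped. In each line Piwil2 exceeded Piwil4 by 11.8- to 23.3-fold and Piwil1 by 16.4- to 27.3-fold. The ranges of Piwil4 and Piwil1 overlapped. These are levels per length, with 625 reads or more behind each Piwil1 value.

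The biogenesis genes had means from 4.73 to 227 FPKM. Ddx4, the germ cell RNA helicase VASA and the usual marker of nuage, was at 173, 203, 274 and 229.5 FPKM in control lines and at 202, 203, 248 and 259.6 FPKM in ICSI lines. Mael, which encodes the nuage protein maelstrom, was at 214, 235, 261 and 193 FPKM in control lines and at 220.3, 212, 247 and 231 FPKM in ICSI lines. Neither gene separated the groups. Of the genes acting at mitochondria and on precursors, Gpat2 and the helicase gene Mov10l1 had means of 110.5 and 110.3 FPKM. Asz1, which holds nuage to mitochondria, and Gtsf1, a PIWI cofactor, had means of 58.8 and 58.2 FPKM. Pnldc1, the trimming nuclease, followed at 48.1 FPKM, and its partner Tdrkh at 22.0 FPKM. Henmt1, which methylates piRNA ends, was at 14.5 FPKM, Tdrd12 at 13.5 FPKM and Pld6, the mitochondrial nuclease that cuts precursors, at 11.0 FPKM. Exd1, a binding partner of the Tdrd12 protein, was the lowest of the group, at 4.36, 4.34, 4.62 and 5.36 FPKM in control lines and 4.38, 4.48, 4.86 and 5.45 FPKM in ICSI lines. It had 654 reads or more in every line.

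The chaperone genes were at the top of the list. Hsp90aa1, which is not restricted to germ cells, was at 224, 305, 459 and 375 FPKM in control lines and at 303, 298, 485 and 338 FPKM in ICSI lines. Its 4 highest lines were those of label form 2. Fkbp6, a germ cell co-chaperone of PIWI loading, was at 209.7, 256, 327 and 210.2 FPKM in control lines and at 253, 234, 258 and 288 FPKM in ICSI lines, with the groups interleaved. The 4 highest genes, Hsp90aa1, Fkbp6, Mael and Ddx4, overlapped their neighbours in range, while the lowest line of Ddx4 lay above the highest line of Piwil2.

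The Tudor scaffold genes had means from 0.229 to 112 FPKM, the widest range of the roles as a ratio of highest to lowest. Stk31, which encodes a Tudor protein with a kinase domain, was at 82.9, 78.4, 159 and 119 FPKM in control lines and at 87.5, 95.8, 149 and 124 FPKM in ICSI lines. The 4 lines of label form 2 were the highest in both groups. Tdrd1, a scaffold for MILI, had a mean of 66.0 FPKM, Tdrd7 of 45.2 FPKM, Tdrd9, a helicase that works with MIWI2, of 36.99 FPKM, Rnf17 of 36.5 FPKM and Tdrd5 of 20.9 FPKM. Tdrd3, a Tudor protein expressed outside the germline too, was at 3.11, 2.85, 2.60 and 3.29 FPKM in control lines and at 2.79, 2.45, 2.90 and 3.30 FPKM in ICSI lines. Tdrd6, a chromatoid body scaffold of spermatids, was at 0.294, 0.170, 0.173 and 0.282 FPKM in control lines and at 0.178, 0.216, 0.311 and 0.205 FPKM in ICSI lines. It rested on 30 to 88 reads per line, above the limit of 3 reads that a count of 0 allows.

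The genes of the other roles lay between these. Wdr77 and Prmt5, which encode the complex that methylates PIWI arginines, had means of 62.0 and 32.4 FPKM. The exons of Wdr77 share 337 of their 4841 bases with Atp5f1 on the opposite strand, a gene at 52.7 FPKM, and 1389 bases with Gm42890 on the same strand, whose level was not analysed here, so the Wdr77 level is uncertain. Those of Tdrkh share 2255 of 6142 bases with Oaz3, which was at 0.0413 FPKM. Tex15, Morc1 and Spocd1, of the nuclear silencing arm, had means of 53.6, 30.1 and 17.2 FPKM. Ddx25, a helicase of the chromatoid body, was at 19.0 FPKM. Mybl1, the transcription factor of the spermatocyte piRNA wave, was at 1.38, 0.690, 0.463 and 0.793 FPKM in control lines and at 0.640, 0.525, 0.490 and 0.955 FPKM in ICSI lines, and only control line 29 exceeded 1 FPKM.

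The labelled cell type was checked against markers. All 10 markers of undifferentiated spermatogonia were above 1 FPKM, as were the 5 of differentiating spermatogonia. Of 13 markers of meiotic and haploid germ cells, Prm1, Prm2 and Tnp2 were listed at 0 in every line and Acrv1 and Pgk2 were below 1 FPKM. The other 8 had means above 1 FPKM. These were Sycp3 at 103 FPKM, Sycp1 at 64.2 FPKM, Hormad1 at 23.1 FPKM and Dmc1 at 14.0 FPKM. Lower were Tnp1 at 8.23 FPKM, Ldhc at 6.34 FPKM, Spata22 at 3.94 FPKM and Spo11 at 1.91 FPKM. The 16 fibroblast markers summed to 287 to 1207 FPKM in control lines and to 403 to 741 FPKM in ICSI lines. The 7 markers of testis somatic cells summed to 4.84 to 7.75 FPKM over all lines, with Amh, Cyp11a1, Insl3 and Gata4 below 1 FPKM.

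The variation of the genes between lines was compared with that of other genes. The median SD of log2(FPKM + 1) over the 8 lines was 0.18 for the 30 genes tested and 0.21 for all 12000 genes tested. The highest line exceeded the lowest by more than 2-fold for 6 of the 32 genes: Piwil4, Hsp90aa1, Stk31, Spocd1, Tex15 and Mybl1. Spocd1, needed for piRNA-directed methylation, was at 14.1, 14.3, 27.5 and 9.70 FPKM in control lines and at 19.0, 24.7, 10.4 and 17.6 FPKM in ICSI lines, a 2.83-fold range with its extremes both in control lines of label form 2. Exd1, Piwil2 and Mov10l1 varied least by this ratio, at 1.26-, 1.26- and 1.27-fold. The label form held 38.4% of the sum of squares of the 30 genes, the group 5.31% and their interaction 8.81%, against 42.1%, 5.04% and 5.40% over all genes tested.

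The lines differed in how often each was the lowest or highest for a pathway gene, and these counts were not tested. ICSI line 20 was the lowest line for 9 of the 32 genes (28.1%) and control line 29 for 8 (25.0%), where these lines were lowest for 18.1% and 19.9% of all genes tested. ICSI line 21 was the lowest for none, against 9.89% of all genes tested. The 9 genes in line 20 included Piwil4, Pld6, Tdrd9 and Tex15, while Hsp90aa1, Asz1, Tdrd5, Tdrd6 and Tdrd7 were highest there. The share of genes highest in that line was 15.6%, against 20.6% of all genes tested. Control line 44 was the highest for 8 genes (25.0%, against 16.3%).

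**Figure D2:**
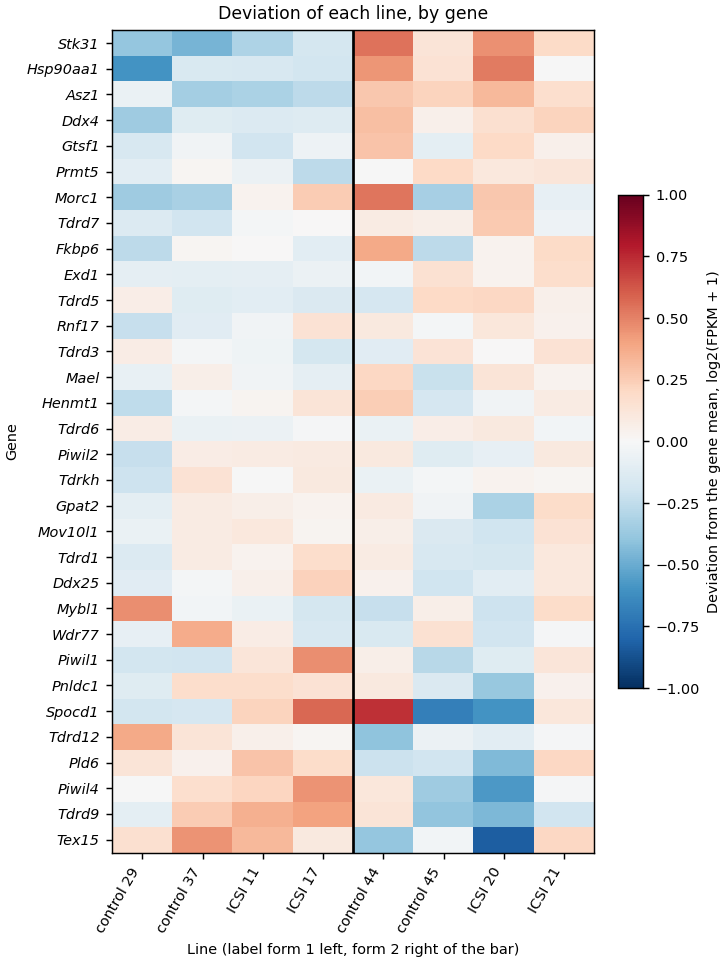
Deviation of each line (columns, label form 1 left of the bar) from the mean of each gene (rows) in log2(FPKM + 1), with red above and blue below the mean; genes are ordered by the difference between forms. Stk31, Hsp90aa1, Asz1 and Ddx4 are high to the right of the bar, and Tex15, Piwil4, Pld6 and Tdrd9 are lowest in ICSI line 20.

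The ICSI-F1 lines were compared with the control-F1 lines to ask whether conception by ICSI left a trace in germline gene expression. No gene of the pathway passed the test. By limma's adjusted p (Benjamini-Hochberg over all genes tested, threshold 0.05) 0 of the 30 were called, and at an unadjusted p under 0.05 there were also 0. The background was the same, with 0 of 12000 genes called (0%) and 55 at an unadjusted p under 0.05. The lines of the groups overlapped for all 30 genes. Over all genes tested, 0.208% had every ICSI line above every control line and 0.233% had every ICSI line below. The genes tested had log2 differences (ICSI minus control) from -0.15 to 0.30, with a median of 0.060 and 22 of 30 above 0. Over all genes tested the median was -0.013 and 44.3% were above 0.

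The intervals show how large a difference these lines leave possible in the fit with the group as its only term. The spread between label forms counts as error in that fit, which can widen the intervals. Over all 12000 genes, 55 had an unadjusted p under 0.05 in limma without the form as a covariate and 140 with it. All 30 intervals at the 95% level lay within -1 and 1 on the log2 scale, that is, within a 2-fold difference. So did those of 11485 of the 12000 genes tested. Of the 30, 21 lay within -0.5 and 0.5, against 65.0% of all genes tested. The widest was that of Spocd1, from -0.56 to 0.87. In bulk RNA, fewer cells of a type and less RNA per cell cannot be told apart.

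By role, the PIWI genes had differences from 0.038 for Piwil4 to 0.30 for Piwil1, with Piwil2 at 0.094. That of Piwil1 was the largest of the 30: control lines had 5.97 ± 0.721 FPKM and ICSI lines 7.61 ± 1.48 FPKM (SD, n = 4 each), with an interval from -0.031 to 0.62 and an exact two-sided permutation p of 0.0571. The next were Morc1, at 0.24 ± 0.20 (SE), and Spocd1, at 0.16 ± 0.32 (SE). Morc1, which encodes a nuclear ATPase of transposon silencing, was at 22.7, 23.2, 43.1 and 23.1 FPKM in control lines and at 30.0, 35.2, 35.5 and 27.6 FPKM in ICSI lines. Control line 44 was above every ICSI line and the other control lines were below every ICSI line. Without control line 44 the Morc1 difference was 0.45 ± 0.12 (SE), with an unadjusted p of 0.00417 and an adjusted p of 1.0 in limma. Over all genes tested, 225 had an unadjusted p under 0.05 in that fit, against 55 with all lines. The line was singled out here for its value, so this p-value is no separate evidence of a difference.

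The lowest differences were below 0. Wdr77 was at 58.0, 79.9, 55.1 and 68.6 FPKM in control lines and at 64.7, 54.9, 53.7 and 61.0 FPKM in ICSI lines (difference -0.15 ± 0.13, SE). Tex15, which encodes a nuclear partner of MIWI2, was at 58.2, 71.0, 39.5 and 51.0 FPKM in control lines and at 65.2, 55.4, 28.9 and 60.0 FPKM in ICSI lines (difference -0.10 ± 0.26, SE). Prmt5 was at 29.8, 32.7, 32.1 and 37.1 FPKM in control lines and at 30.9, 26.8, 34.7 and 35.2 FPKM in ICSI lines (difference -0.050 ± 0.12, SE). The ranges of the groups overlapped for each of these genes. The 12 biogenesis genes ranged from -0.041 for Asz1 to 0.12 for Pld6, the 7 Tudor genes tested from -0.039 for Tdrd3 to 0.13 for Rnf17, and both chaperone genes were near 0, at 0.064 for Fkbp6 and 0.082 for Hsp90aa1. Ddx25 was at 0.14. For the genes below the filter, the exact two-sided permutation p was 1.0 for Tdrd6 and 0.514 for Mybl1 (n = 4 each).

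**Figure D3:**
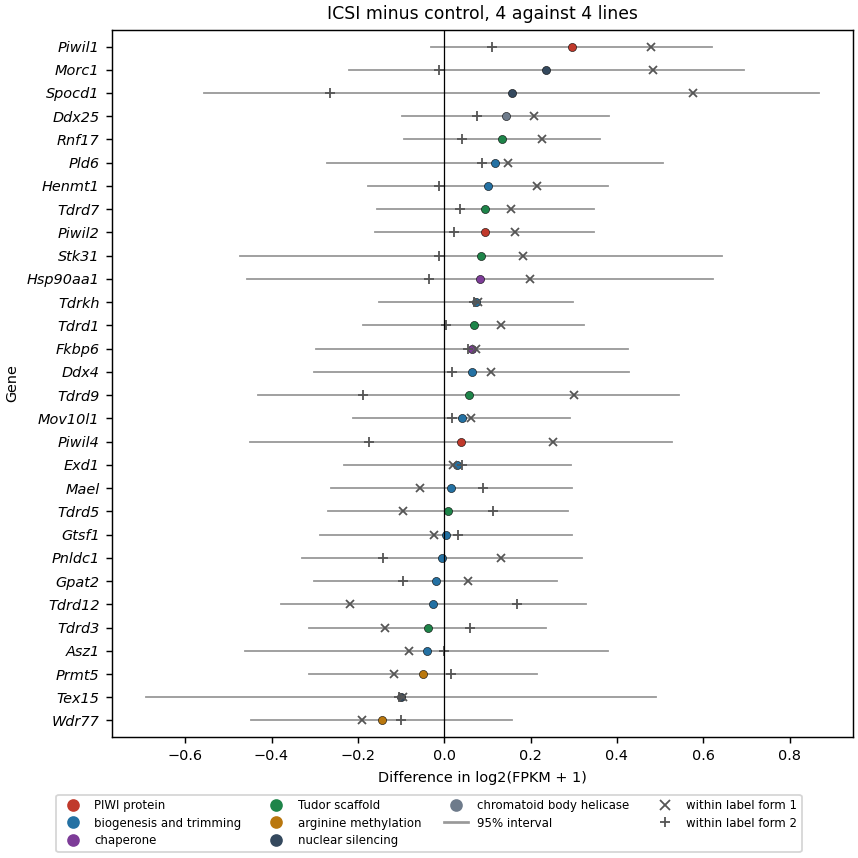
Difference in log2(FPKM + 1), ICSI minus control, for the 30 genes tested, with the 95% interval from limma (grey lines) and the differences within label form 1 (crosses) and label form 2 (plus signs). Every interval includes 0, and the within-form values of Spocd1, Morc1, Tdrd9 and Piwil4 lie far apart.

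Within the label forms, with 2 lines a group in each, the differences had the same sign in both forms for some genes and opposite signs for others. A difference above 0 was found for 21 of the 30 genes in form 1 and for 18 in form 2, for 12 in both forms, and 15 genes had opposite signs. The median was 0.12 in form 1 and 0.019 in form 2, against -0.016 and -0.0089 over all genes tested. Piwil1 was at 0.48 in form 1 and 0.11 in form 2. Spocd1 was at 0.58 in form 1 and at -0.26 in form 2, and Morc1 at 0.48 and -0.012. The dependence of the ICSI difference on label form was tested as an interaction, and limma called 0 of the 30 genes and 0 of 12000 genes (0%) at an adjusted p of 0.05. At an unadjusted p under 0.05 there were 0 of the 30 and 147 of all genes tested.

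Markers of other cells compared between the groups as follows. Of the 16 fibroblast markers, 15 had a log2 difference (ICSI minus control) below 0. Their median difference was -0.26 and 0 were called. The difference came from control lines 29 and 44, where these markers summed to 1207 and 1131 FPKM. Control lines 37 and 45 had 410 and 287 FPKM, and ICSI lines 11, 17, 20 and 21 had 403, 575, 741 and 438 FPKM. The differentiating spermatogonia markers had a median of 0.16 and the meiotic and haploid markers of 0.12. The 10 markers of undifferentiated spermatogonia had a median of -0.13 with 3 above 0. In each of these lists 0 were called. Their part in the small differences of the pathway genes was not tested.

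The label forms were then compared, with the group as covariate. A few genes of the pathway were higher in label form 2, and none was lower past the threshold. Limma called 4 of the 30 at an adjusted p of 0.05: Stk31, Hsp90aa1, Asz1 and Ddx4, all higher in form 2. This share (13.3%) was near the background of 16.0% of all genes tested, of which 10.2% were higher and 5.76% lower in form 2. At an unadjusted p under 0.05 there were 10 of the 30 (33.3%), against 35.4% of all genes tested. The forms did not overlap, with form 2 higher, for 5 of the 30 genes, the 4 named and Exd1, and with form 2 lower for Tdrd12. Over all genes tested these shares were 16.0% and 10.8%. The median difference was 0.029, with 15 of 30 above 0, and 0.028 over all genes tested.

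**Figure D4:**
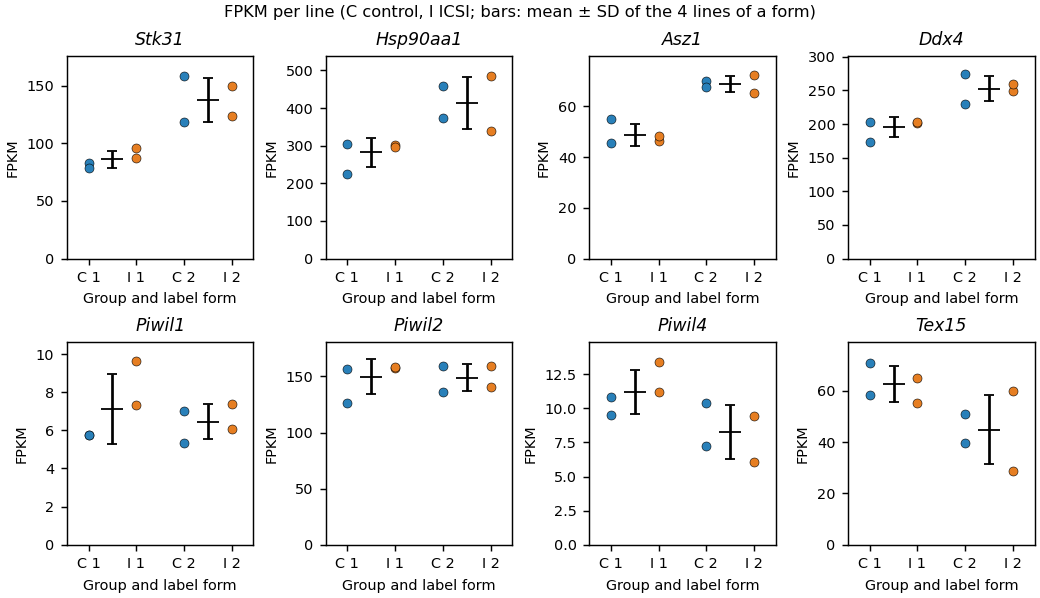
FPKM per line of 8 genes by group and label form (C control, I ICSI, followed by the form), with the mean and SD of the 4 lines of each form. The forms separate for Stk31, Hsp90aa1, Asz1 and Ddx4 and overlap for the PIWI genes and Tex15.

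Stk31 had the largest difference. Its lines had 86.1 ± 7.45 FPKM in form 1 and 138 ± 19.4 FPKM in form 2 (SD, n = 4 each), a 1.60-fold ratio of means (limma log2 difference 0.66 ± 0.12, SE, with an adjusted p of 0.0144). The lowest line of form 2, control line 45, lay above the highest line of form 1, ICSI line 17. Hsp90aa1 had 282 ± 39.2 FPKM and 414 ± 69.3 FPKM, a 1.47-fold ratio (0.55 ± 0.16 SE, limma adjusted p = 0.0480). Asz1 was at 55.0, 45.4, 70.0 and 67.5 FPKM in control lines and at 46.3, 48.1, 72.5 and 65.2 FPKM in ICSI lines. Its forms had 48.7 ± 4.37 FPKM and 68.8 ± 3.15 FPKM (0.49 ± 0.087 SE, limma adjusted p = 0.0144). The form took 89.3% of the sum of squares of Asz1, the largest such share among the pathway genes. Ddx4 had 195 ± 14.7 FPKM and 253 ± 18.7 FPKM, a 1.29-fold ratio (0.37 ± 0.099 SE, limma adjusted p = 0.0385).

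The calls differed in how firmly they held. That of Stk31 was lost without control line 37 or ICSI line 11, and that of Asz1 without either of these or ICSI line 17. Hsp90aa1 was lost without any of 7 lines, all but ICSI line 21, and Ddx4 without any of the 8. The difference stayed above 0 in each of these fits. Under quantile normalization the Ddx4 difference was 0.14 (limma adjusted p = 0.377), that of Hsp90aa1 0.31 (0.132), and Tdrd9 passed as lower, as it did in limma-voom on recovered reads. Without a filter on low values the calls of Hsp90aa1 and Ddx4 were lost, and under median-of-ratios scaling that of Hsp90aa1. Among all genes the share of calls that were higher in form 2 was 64.0% as deposited, 51.2% under quantile normalization and 46.9% in limma-voom on recovered reads.

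The genes with the 3 lowest differences were chosen after their values were seen. Tex15 had 62.5 ± 7.01 FPKM in form 1 and 44.8 ± 13.5 FPKM in form 2 (-0.51 ± 0.21 SE, limma adjusted p = 0.115). Tdrd9 had 42.9 ± 6.47 and 31.1 ± 6.07 FPKM (-0.46 ± 0.16 SE, limma adjusted p = 0.0791), and Piwil4 11.2 ± 1.62 and 8.27 ± 1.98 FPKM (-0.42 ± 0.17 SE, limma adjusted p = 0.121). None of the 3 passed the threshold. Leaving out control line 44 brought Tdrd9 past it (-0.61, limma adjusted p = 0.0409), and leaving out ICSI line 21 brought Tex15 (-0.72, limma adjusted p = 0.0197) and Pld6 (-0.44, limma adjusted p = 0.0287). Piwil2 had nearly the same mean in both forms, at 149.8 ± 15.5 and 149 ± 12.1 FPKM, with an interval of the log2 difference from -0.24 to 0.23. Pld6 and Tdrd12 had differences of -0.32 and -0.29 with adjusted p-values of 0.1296 in limma.

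**Figure D5:**
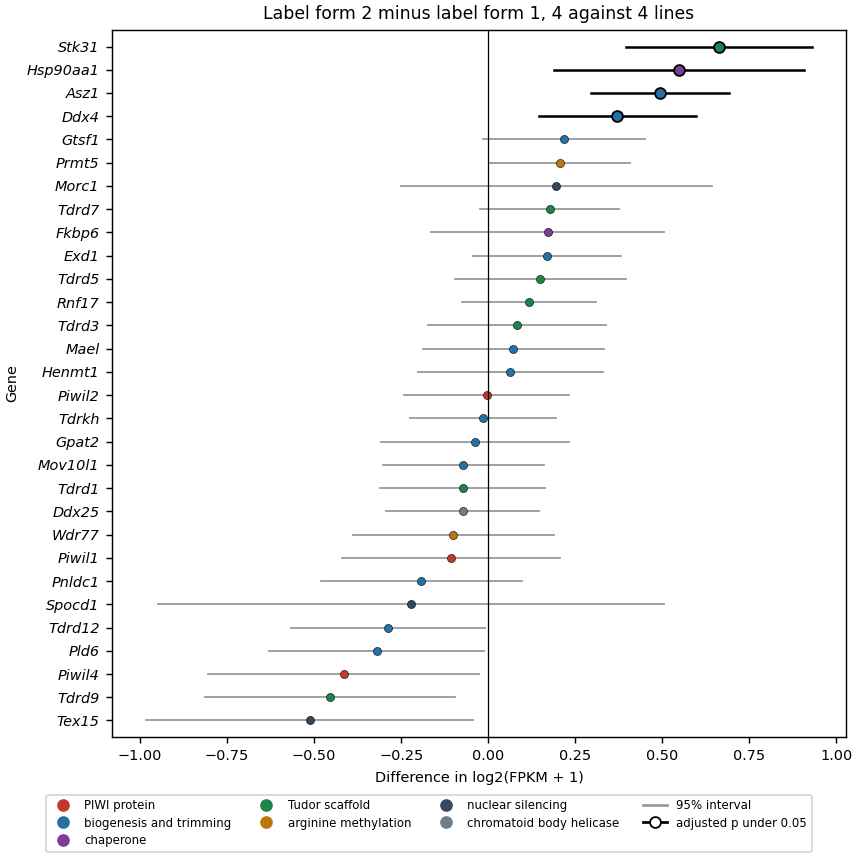
Difference in log2(FPKM + 1), label form 2 minus label form 1, for the 30 genes tested, with the 95% interval from limma; black lines and larger points are the 4 genes with an adjusted p under 0.05. These 4 lie at 0.37 to 0.66, and the lowest 3, Tex15, Tdrd9 and Piwil4, did not pass.

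Other measures moved with the label form too. The reads assigned to genes, recovered from the FPKM steps, numbered 24702803 to 26658712 per line in form 1 and 32358207 to 44278762 in form 2. Of the 10 markers of undifferentiated spermatogonia, 5 were called higher in form 2 (Etv5, Gfra1, Id4, Ret and Sall4), and the markers summed to 349 to 481 FPKM in form 1 and 539.6 to 759 FPKM in form 2. Of the 5 markers of differentiating spermatogonia, Kit was called lower, and the list had a median of -0.41 with 2 above 0, Dmrtb1 and Sohlh2. Of the 8 meiotic and haploid markers tested, Sycp1 and Sycp3 were called higher, and the list had a median of -0.11 with 3 above 0. Fibroblast markers summed to 403 to 1207 FPKM in form 1 and 287 to 1131 FPKM in form 2, with 0 called. Sox9 was called higher and Wt1 lower among the somatic markers, with means of 2.18 and 2.08 FPKM. Their part in the differences of Stk31, Hsp90aa1, Asz1 and Ddx4 was not tested.

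The other genes of the pathway and of small RNA biology were taken from 2 lists, of other piRNA and nuage factors and of Argonaute and microRNA factors. Of these, 26 were in the table and 24 were tested. The 3 highest were Hsp90ab1, at 1076 FPKM, Stip1, at 134 FPKM, both of the chaperone machinery, and Drosha, the nuclear microRNA processor, at 64.7 FPKM. Between ICSI and control lines 0 of the 24 were called in limma, 0 had an unadjusted p under 0.05, and the median differences of the lists were -0.0099 and -0.0087. Between the label forms 6 of the 24 were called, and all 6 were lower in form 2, against the background of 16.0% of all genes tested called, 10.2% higher and 5.76% lower. Dnmt3l, the cofactor of de novo DNA methylation, had 4.80 ± 1.38 FPKM in form 1 and 1.92 ± 0.918 FPKM in form 2 (n = 4 lines each, SD). Its log2 difference was -1.01 ± 0.25 (SE), with a limma adjusted p of 0.0319. The Argonaute genes Ago3 and Ago1 fell by 0.86 and 0.65 on the log2 scale, and Tarbp2, a Dicer partner, fell by 0.57. Btbd18, a nuclear factor of piRNA precursor transcription, fell by 0.46, and Mfn2, a mitochondrial fusion gene, fell by 0.34. Their count ranged from 0, without control line 37 or without either of ICSI lines 11 and 17, to 6 when single lines were left out.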

How the data were processed

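RNA-Seq was performed on 8 GS cell lines, 4 control-F1 and 4 ICSI-F1, grouped by their titles. Per the submitters' processing notes, reads were trimmed with cutadapt 1.16, mapped to mm10 with STAR 2.6.0c and counted with HTSeq 0.11.2; the study's methods give other versions. The authors deposited FPKM values, on which each result rests. They also deposited a log2 fold change and an adjusted p-value per gene from DESeq2 1.22.2, which were not used. The labels and the methods name different library kits, so strandedness is uncertain.

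Values were tested as log2(FPKM + 1) by limma 3.58.1 (R 4.3.3, functions lmFit and eBayes, trended variance), two-sided, over the 12000 genes whose mean reached 1 FPKM. P-values were adjusted by Benjamini-Hochberg and called under 0.05. The pseudocount understates changes of low genes. The ICSI comparison had the group as its only term, the label form comparison was adjusted for group, and their interaction was fitted separately. Single values were tested by an exact permutation test over 70 assignments, whose smallest two-sided p is 0.0286. FPKM steps gave whole reads for 99.8% of genes above 0 (tolerance 0.02 reads), 24702803 to 44278762 assigned to genes per line, so 1 read in 1 kb was worth 0.0227 to 0.0401 FPKM. Such limits cover counting error only.

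Gene positions came from GENCODE M21 on GRCm38, where 30869 identifiers were found. Values per line were given by rule for PIWI genes, the 3 highest and 3 lowest genes, genes past the threshold, and the 3 highest and 3 lowest signed ICSI differences; other pathway genes were named if past the threshold or among the first 3 by level. The 32 genes and all lists were chosen with earlier results of these data known. The ICSI fit was tested on simulated data. These held no difference between label forms, so they do not show how that fit performs with one. Alternatives were another pseudocount, other filters, TPM, quantile and median-of-ratios scaling, limma-voom on recovered reads, other covariates, and each line left out.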

Additional observations from a re-analysis of the deposited data

Results flagged for a closer look

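Among the 64 groups of 4 values of the pathway genes, 3 held a line far from the other lines of its group, by Dixon's test at its 95% critical value. Chance gives about 5% of such groups, and 4.69% were found. ICSI line 20 had the lowest Piwil2 of its group, 141 FPKM, where lines 11, 17 and 21 had 158 to 159 FPKM and control lines 127 to 159 FPKM. The same line had the highest Tdrd7 of its group, 54.05 FPKM, where lines 11, 17 and 21 had 43.5 to 44.98 FPKM. Control line 44 had 43.1 FPKM of Morc1, while lines 29, 37 and 45 had 22.7 to 23.2 FPKM. No gene of the pathway had an ICSI difference that differed between the label forms past the threshold in limma.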

How the results depend on the processing

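The count of pathway genes called between ICSI and control lines stayed at 0 under every alternative run, as did those of the other piRNA and small RNA genes and of the interaction. Over all genes the ICSI count was 1 without a filter. When a line was left out of the interaction, a group and form held a lone line, assumed to vary like the others. Without control line 44 or ICSI line 20, 2 pathway genes had an unadjusted p under 0.05 for ICSI (Morc1 and Piwil1, then Piwil1 and Pld6). Over all genes tested, 225 and 382 had such a p in these limma fits, against 55 with all lines. Without control line 29 the median ICSI difference was 0.021, with 17 of 30 above 0. All 538 alternative values of single ICSI differences lay within 1 SD of the main ones, but most of them could not have passed that limit. Leaving out a single line cannot move a group mean by 1 SD. Other filters, or the label form as a covariate, returned the same differences. For these values the limit is therefore no test of robustness. Within label form 2, 10 of 30 differences changed sign.

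Between label forms, the filter and the left-out lines moved the counts most. Without a filter, 1255 genes, 2 pathway genes and 1 of the other piRNA and small RNA genes were called. With single lines left out, counts ran from 210 to 2691 for all genes (lowest without ICSI line 11), from 0 to 5 for the pathway (0 without control line 37 or ICSI line 11) and from 0 to 6 for the other list. The cause of the shifts beyond the smaller number of lines was not tested. With the label form as the only term, 9 of the other list were called, 3 higher and 6 lower. No paired analysis was possible because the groups share no replicate numbers. With the label form as a covariate, 0 of 30 pathway genes and 0 of 12000 genes were called between ICSI and control lines, with 140 of all genes at an unadjusted p under 0.05 in limma. The pathway genes tested had 419 reads or more in each line.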
